A study of Mus musculus with 78 samples.

Results

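The nuclear genes for the subunits of the oxidative phosphorylation complexes were followed through 72 h of cytokine treatment in mouse engineered cartilage. Members were the rows of the deposited mRNA count table named by the usual symbols of complexes I to V (Nduf, Sdh, Uqcr, Cyc1, Cox4 to Cox8 and Atp5 names, without the Ndufaf assembly factors) that averaged at least 1 CPM (a count scaled to the library total) over the libraries used. Of 52459 named rows 86 had such a name, and 82 of these passed the level threshold: 38 genes of complex I, 4 of complex II, 9 of complex III, 14 of complex IV and 17 of complex V. Atp5s and Atp5sl, counted in complex V by these names, are listed as Dmac2l and Dmac2 in RefSeq and not as ATP synthase subunits. All 82 passed the low-count filter of the test. The 4 rows under the threshold were Cox7a1, the heart and muscle isoform, at a mean of 0.360 CPM, Cox6a2 at 0.143 CPM, Cox7b2 at 0.0106 CPM and Cox8c at 0.0059 CPM. Just inside it lay Atp5g2 at 1.5 CPM and Cox6b2 at 1.86 CPM.

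The cartilage was grown from murine induced pluripotent stem cells, and total RNA depleted of ribosomal RNA was sequenced. Cultures received 1 ng/mL of the cytokine IL-1beta, or 20 ng/mL of TNF-alpha, and were taken after 4, 12, 24 and 72 h. Untreated controls were taken at the same times and at 0 h. Each group has 3 libraries, named a, b and c; the labels do not say whether these came from separate cultures, so a p-value here covers the spread between libraries, which may be technical. How many stem cell lines or clones were used is not given in the sources used here. Of 39 mRNA libraries 38 were used. The column of control 0 h b held 220180 counts and correlated with every other library at no more than 0.189, against 0.997 between a and c of that group, so it was left out. The other library totals ran from 11163263 to 68655350 counts. IL-1beta libraries of 4 h and the controls of 0 and 4 h stood apart from all the rest, so at 4 h a TNF-alpha effect cannot be told apart from that parting. The 8 chondrocyte markers checked, among them Col2a1, Acan and Sox9, were all detected; their summed level at 72 h was 16000 to 17600 CPM with IL-1beta, 37400 to 45200 CPM with TNF-alpha and 79000 to 98600 CPM in controls. In tissue RNA of this kind fewer cells of a type and less RNA per cell cannot be told apart.

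In oxidative phosphorylation, complexes I and II pass electrons from NADH and succinate to ubiquinone, complex III passes them on to cytochrome c, and complex IV, cytochrome c oxidase, hands them to oxygen. Complexes I, III and IV pump protons across the inner mitochondrial membrane, and complex V, the ATP synthase, uses the gradient to make ATP. Most subunits are nuclear genes, and a few exist as isoforms whose use depends on tissue or oxygen: COX4I2 replaces COX4I1 in lung and under low oxygen, COX8B is the heart and skeletal muscle form in the mouse, and NDUFA4L2 is a hypoxia-inducible relative of NDUFA4 known to lower complex I activity. NDUFA4 carries a complex I name but is known as a subunit of complex IV. Chondrocytes live in tissue without vessels and rely largely on glycolysis.

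Promoter sequences are shown for the members called in the same direction in at least 5 of the 8 comparisons of a cytokine with its control, where the RefSeq promoter table (GRCm38.p6) has an entry and one of 5 motifs was found. Such a window runs from 250 bases before to 50 bases after the start of the gene. The table has an entry for 68 of the 82 members and none for Ndufa4l2 and Cox4i2, which are named only. Capitals mark, on either strand, the motifs searched: ACGTG and GCGTG, the core letters of the hypoxia response element, GCATGCGC, the core of the NRF1 motif, CCGGAAG, an ETS motif, and AAGATGGC, a YY1 motif. The Ndufv3 window lies at chr17:31519865-31520164 on the plus strand and the Cox8b window at chr7:140900397-140900696 on the minus strand, and both genes fell. The Uqcrc1 window lies at chr9:108936398-108936697 on the plus strand and the Uqcrfs1 window at chr13:30545267-30545566 on the minus strand, and both genes rose.
Ndufv3: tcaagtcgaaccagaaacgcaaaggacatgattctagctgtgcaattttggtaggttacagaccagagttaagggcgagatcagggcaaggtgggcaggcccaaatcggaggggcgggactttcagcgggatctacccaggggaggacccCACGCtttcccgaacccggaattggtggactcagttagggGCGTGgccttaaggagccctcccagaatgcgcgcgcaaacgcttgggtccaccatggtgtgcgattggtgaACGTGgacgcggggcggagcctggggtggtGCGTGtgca
Cox8b: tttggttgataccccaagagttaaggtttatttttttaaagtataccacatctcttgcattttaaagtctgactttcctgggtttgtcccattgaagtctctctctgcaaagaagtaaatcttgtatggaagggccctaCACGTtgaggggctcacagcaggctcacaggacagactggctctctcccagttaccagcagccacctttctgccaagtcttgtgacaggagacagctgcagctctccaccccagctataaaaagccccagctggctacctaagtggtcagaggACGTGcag
Uqcrc1: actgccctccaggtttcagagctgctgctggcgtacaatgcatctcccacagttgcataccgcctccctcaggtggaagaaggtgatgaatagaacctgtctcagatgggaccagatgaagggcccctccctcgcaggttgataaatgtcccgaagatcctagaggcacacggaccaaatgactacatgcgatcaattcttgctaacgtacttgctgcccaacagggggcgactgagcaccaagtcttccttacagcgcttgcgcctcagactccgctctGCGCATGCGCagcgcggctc
Uqcrfs1: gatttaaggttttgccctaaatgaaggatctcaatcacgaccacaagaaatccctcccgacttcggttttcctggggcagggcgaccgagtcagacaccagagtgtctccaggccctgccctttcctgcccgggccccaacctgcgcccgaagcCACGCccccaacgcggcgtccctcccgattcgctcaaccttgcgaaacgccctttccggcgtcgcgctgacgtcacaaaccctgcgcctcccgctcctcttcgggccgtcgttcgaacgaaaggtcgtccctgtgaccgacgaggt

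The Ndufv3 window held ACGTG once and GCGTG 3 times, and the Cox8b window held ACGTG 2 times and GCGTG not at all. The window of Uqcrc1 held the NRF1 core 2 times, as overlapping matches on the 2 strands, and that of Uqcrfs1 held GCGTG once. That of Ndufa10, which was also called higher in 5 comparisons, held none of the 5 motifs. Over the 68 members with an entry, the NRF1 core was present in 10 windows (14.7%), the ETS motif in 16 (23.5%) and the YY1 motif in 11 (16.2%). Over all 27025 genes with an entry these shares were 3.05%, 9.93% and 3.19%. ACGTG stood in 18 member windows (26.5%), against 21.8% of all genes, and GCGTG in 36 (52.9%), against 35.2% of all genes. ACGTG and GCGTG differ in their first letter and were counted separately. A match describes letters in these windows and not a bound site.

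Among the 82 members, levels per length differed by more than 2 orders of size in these cultures. Ndufa4l2 was the highest over all, with a mean of 223 CPM per kb over the 38 libraries, above Atp5a1, the ATP synthase alpha subunit, at 170 CPM per kb and Cox8a, the ubiquitous isoform of a small complex IV subunit, at 161 CPM per kb. Cox6a1 followed at 141 CPM per kb, and Atp5b, the catalytic beta subunit, at 129 CPM per kb. In the groups Ndufa4l2 ranked first in all controls, with both cytokines at 4 h and with IL-1beta at 72 h. It ranked 7 with IL-1beta at 12 and at 24 h, and 6, 21 and 27 with TNF-alpha at 12, 24 and 72 h, when Atp5a1 or Cox8a came first. The lowest were Atp5g2 at 0.886 CPM per kb, Atp5l at 0.890 CPM per kb and Atp5g1 at 1.27 CPM per kb. All members together took between 0.315% and 0.635% of the counts of a library, and the lowest count of any member in any library was 7.

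In the fit of 38 libraries, changes against the control were few among the members and small for most of them. Over the 8 comparisons of a cytokine with its control, 82 of 656 pairs of member and comparison passed the test, against 30.6% of such pairs over all genes (edgeR quasi-likelihood, Benjamini-Hochberg adjusted p under 0.05 over 18857 genes). They came from 29 members, while 53 members were called in none. Of all genes 73.8% were called in at least 1 of the 8. The number of calls depended on the fit, so this comparison with all genes holds for this fit only. Here 18 members were called with IL-1beta at 24 h and 5 with TNF-alpha at 4 h. Without the low-count filter these were 40 and 48, with only the libraries compared 31 and 30, and with all 39 libraries 4 and 1. For IL-1beta at 12 h the count moved less, from 5 to 7 without the filter. A called change of at least 2-fold was found for 3 members only, the isoform genes Ndufa4l2, Cox4i2 and Cox8b, each time downwards; the largest called change of any other member was a log2 change of 0.77. The members called lower in 5 or 6 of the 8 comparisons, Ndufa4l2, Cox4i2, Cox8b and Ndufv3, are described first, and the other members after them.

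Ndufa4l2 fell with both cytokines at 12 and 24 h, and at 72 h it stayed low only where TNF-alpha was given. At 12 h its levels were 78.5, 55.6 and 76.8 CPM with IL-1beta, 102, 81.1 and 92.2 CPM with TNF-alpha, and 331, 311 and 417 CPM in controls. At 72 h they were 527, 481 and 499 CPM with IL-1beta, 39.2, 40.2 and 38.5 CPM with TNF-alpha, and 443, 429 and 367 CPM in controls. All treated libraries lay below all controls at 12 h, whereas at 72 h the TNF-alpha libraries lay below and the IL-1beta libraries above every control. The log2 change with IL-1beta was -2.33 ± 0.14 (SE, n = 3 libraries per group, adjusted p = 3.28e-15) at 12 h and -1.81 ± 0.14 (adjusted p = 5.9e-13) at 24 h. At 72 h it was 0.28 ± 0.13 (adjusted p = 0.0912) and did not pass the test. With TNF-alpha the log2 change was -1.94 ± 0.14 (adjusted p = 2.34e-13) at 12 h, -2.96 ± 0.15 (adjusted p = 7.66e-18) at 24 h and -3.39 ± 0.15 (adjusted p = 2.56e-19) at 72 h. At 4 h neither cytokine gave a call, with log2 changes of -0.30 for both (adjusted p = 0.0799 with IL-1beta and 0.109 with TNF-alpha).

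Set directly against each other, the cytokines parted at Ndufa4l2. It was higher with IL-1beta than with TNF-alpha at 24 h, by a log2 difference of 1.15 ± 0.14 (adjusted p = 4.33e-08), and at 72 h, by 3.68 ± 0.15 (adjusted p = 2.96e-20). The change of the IL-1beta effect between 72 and 12 h was 2.62 ± 0.19 (adjusted p = 6.71e-13), and that of the TNF-alpha effect was -1.45 ± 0.19 (adjusted p = 3.13e-06), so the 2 effects moved in opposite directions over that time. Its relative Ndufa4 was called lower in none of the 8 comparisons: at 72 h it was 47.0, 41.3 and 42.2 CPM with IL-1beta, 58.6, 45.4 and 45 CPM with TNF-alpha, and 32.8, 38.5 and 29.3 CPM in controls. Per length, the ratio of Ndufa4l2 to Ndufa4 at 72 h ran from 14.2 to 14.9 with IL-1beta, from 0.844 to 1.12 with TNF-alpha, and from 14 to 17 in controls. At 12 h the ratio was 2.92 to 4.66 with IL-1beta, 2.93 to 5.60 with TNF-alpha, and 20.4 to 22.2 in controls. Ndufa4 itself passed the test with IL-1beta at 24 h (log2 change 0.60 ± 0.21, adjusted p = 0.0283) and with TNF-alpha at 72 h (0.56 ± 0.21, adjusted p = 0.0362). Both of its calls were lost when single libraries were left out: at 24 h without IL-1beta a (0.54), control a (0.57) or control b (0.50), and at 72 h without TNF-alpha a (0.43), control a (0.54) or control c (0.46).

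Cox4i2, the hypoxia-linked isoform of the regulatory subunit of cytochrome c oxidase, fell with both cytokines at 12, 24 and 72 h. At 12 h the levels were 13.4, 7.93 and 9.35 CPM with IL-1beta, 15.2, 13 and 15.6 CPM with TNF-alpha, and 30.1, 29.8 and 37.3 CPM in controls. At 72 h they were 35.8, 37.0 and 32.2 CPM with IL-1beta, 17.9, 12.7 and 14.7 CPM with TNF-alpha, and 58.0, 55.3 and 62.9 CPM in controls. No treated library reached a control at either time. With IL-1beta the log2 change was -1.69 ± 0.19 (adjusted p = 5.45e-09) at 12 h, -1.71 ± 0.17 (adjusted p = 2.73e-10) at 24 h and -0.75 ± 0.16 (adjusted p = 0.000191) at 72 h. With TNF-alpha it was -1.14 ± 0.17 (adjusted p = 3.06e-06) at 12 h, -1.14 ± 0.16 (adjusted p = 1.13e-06) at 24 h and -1.97 ± 0.16 (adjusted p = 5.98e-12) at 72 h. IL-1beta stood below TNF-alpha at 24 h, with a log2 difference of -0.57 ± 0.17 (adjusted p = 0.0138), and above it at 72 h, with 1.22 ± 0.17 (adjusted p = 1.64e-07). The 24 h difference was no longer called without IL-1beta a (-0.51), IL-1beta c (-0.51) or TNF-alpha b (-0.42).

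The general isoform Cox4i1 did not pass the test. At 72 h Cox4i1 was 214, 206 and 197 CPM with IL-1beta, 219, 182 and 177 CPM with TNF-alpha, and 175, 180 and 163 CPM in controls, with log2 changes of 0.25 ± 0.14 (adjusted p = 0.146) and 0.16 ± 0.14 (adjusted p = 0.392). It was called in none of the 8 cytokine comparisons. Per length, Cox4i2 stood to Cox4i1 at 72 h as 0.321 to 0.353 with IL-1beta, 0.137 to 0.163 with TNF-alpha, and 0.603 to 0.761 in controls.

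Ndufa4l2 lies at chr10:127509274-127517154 and overlaps Shmt2, and Cox4i2 lies at chr2:152753916-152765039 and overlaps Bcl2l1 (GRCm38.p6). Whether reads were counted by strand is not given in the sources used here, so the values of these neighbours are set beside them. Shmt2 changed by -0.58 ± 0.09 (log2, adjusted p = 5.21e-06) with IL-1beta at 12 h, the same direction as Ndufa4l2, and by -0.02 ± 0.09 (adjusted p = 0.884) with TNF-alpha at 72 h, where Ndufa4l2 was lowest. Shmt2 was also lower with IL-1beta at 24 and 72 h (-0.31 and -0.28) and with TNF-alpha at 12 h (-0.26). Bcl2l1 rose with IL-1beta at 12 and 24 h, by 0.52 ± 0.08 (adjusted p = 7.43e-06) and 0.29 ± 0.08 (adjusted p = 0.0062), while Cox4i2 fell. With TNF-alpha it rose at 12, 24 and 72 h, by 0.37, 0.53 and 0.63 on the log2 scale, and Cox4i2 fell there too. With IL-1beta at 72 h Bcl2l1 fell as Cox4i2 did (-0.24 ± 0.08, adjusted p = 0.0231). In all, 26 of the 82 members overlap another gene in that annotation.

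Cox8b, the heart and skeletal muscle isoform of the smallest complex IV subunit, was low throughout and lay below the controls most clearly at 72 h. Its levels there were 5.66, 4.76 and 5.70 CPM with IL-1beta, 3.76, 3.19 and 1.87 CPM with TNF-alpha, and 14.4, 10.2 and 8.60 CPM in controls. The groups did not overlap: TNF-alpha lay below IL-1beta and IL-1beta below the controls. The log2 change was -1.05 ± 0.21 (adjusted p = 0.000124) with IL-1beta and -1.91 ± 0.22 (adjusted p = 9.66e-09) with TNF-alpha, and the cytokines differed by 0.86 ± 0.23 (adjusted p = 0.0029). At 12 h Cox8b had 1.89, 1.44 and 1.01 CPM with IL-1beta and 1.4, 1.08 and 2.18 CPM with TNF-alpha. Controls of 12 h had only 2.34, 2.89 and 3.05 CPM, below the controls of 72 h and also below the IL-1beta libraries of 72 h. The direct test of a changed effect between 72 and 12 h called Cox8b with neither cytokine.

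The earlier calls of Cox8b were weak. With IL-1beta the log2 change was -0.94 ± 0.32 (adjusted p = 0.0251) at 12 h, lost without IL-1beta b (-0.95), IL-1beta c (-0.74), control b (-0.90) or control c (-0.86). At 24 h it was -0.72 ± 0.23 (adjusted p = 0.0139), lost without IL-1beta c (-0.50) or control c (-0.46). With TNF-alpha at 12 h it was -0.80 ± 0.30 (adjusted p = 0.0458), lost without TNF-alpha a (-0.70), TNF-alpha b (-0.60), control b (-0.75) or control c (-0.70). Cox8a, its ubiquitous counterpart, rose with IL-1beta at 24 h by 0.48 ± 0.15 (adjusted p = 0.0116; 0.35 and not called without control b). It had 116, 106 and 111 CPM with IL-1beta, 131, 108 and 113 CPM with TNF-alpha, and 93.6, 108 and 79.9 CPM in controls at 72 h. Of 10 striated muscle markers only Tnnt3, a troponin, and Des, desmin, passed the low-count filter. The summed level of the 10 at 72 h was 4.85 to 6.44 CPM with IL-1beta, 6.52 to 7.67 CPM with TNF-alpha and 13.1 to 16.9 CPM in controls. Like Cox8b, this sum lay below the controls with both cytokines. Unlike Cox8b, it was lower with IL-1beta than with TNF-alpha. Actn2, Myh1, Myh2, Ckm, Myl1 and Mb each averaged under 0.1 CPM. Of 3 brown fat markers, Ucp1 and Elovl3 averaged under 0.1 CPM, and the sum at 72 h was 1.25 to 2.14 CPM with IL-1beta, 1.92 to 2.87 CPM with TNF-alpha and 3.11 to 3.55 CPM in controls. The part of such cells in the Cox8b values was not tested.

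Ndufv3, an accessory subunit of the NADH-binding module of complex I, was lower with both cytokines at 4 and 12 h, and the cytokines parted at 72 h. At 12 h it had 25.5, 17.0 and 21.0 CPM with IL-1beta, 26.4, 21.0 and 27.6 CPM with TNF-alpha, and 34.1, 36.0 and 35.5 CPM in controls. At 72 h it had 70.5, 65.9 and 67.0 CPM with IL-1beta, 39.4, 32.3 and 32.9 CPM with TNF-alpha, and 51.7, 48.7 and 45.8 CPM in controls. Both cytokines lay below the controls at 12 h, and at 72 h the IL-1beta libraries lay above and the TNF-alpha libraries below every control. With IL-1beta the log2 change was -0.64 ± 0.12 (adjusted p = 8.49e-05) at 4 h, -0.75 ± 0.13 (adjusted p = 3.36e-05) at 12 h, -0.14 ± 0.12 (adjusted p = 0.428) at 24 h and 0.47 ± 0.12 (adjusted p = 0.0015) at 72 h. With TNF-alpha it was -0.57 ± 0.12 (adjusted p = 0.000844) at 4 h, -0.49 ± 0.13 (adjusted p = 0.00361) at 12 h, -0.40 ± 0.12 (adjusted p = 0.0123) at 24 h and -0.49 ± 0.12 (adjusted p = 0.00149) at 72 h. Against control 12 h in place of control 4 h the TNF-alpha value at 4 h was -0.22 (adjusted p = 0.218), and not called. The call with TNF-alpha was lost at 12 h without TNF-alpha b (-0.36) and at 24 h without TNF-alpha a (-0.31) or control c (-0.33). At 72 h IL-1beta exceeded TNF-alpha by 0.96 ± 0.12 (adjusted p = 3.05e-08). Its partner in the same module, Ndufv1, was not called at 12 h, with log2 changes of 0.11 ± 0.08 (adjusted p = 0.274) with IL-1beta and 0.07 ± 0.07 (adjusted p = 0.549) with TNF-alpha. Neither Ndufv3, at chr17:31520115-31531326, nor Cox8b, at chr7:140898942-140900446, overlaps another gene in the annotation.

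**Figure D1:**
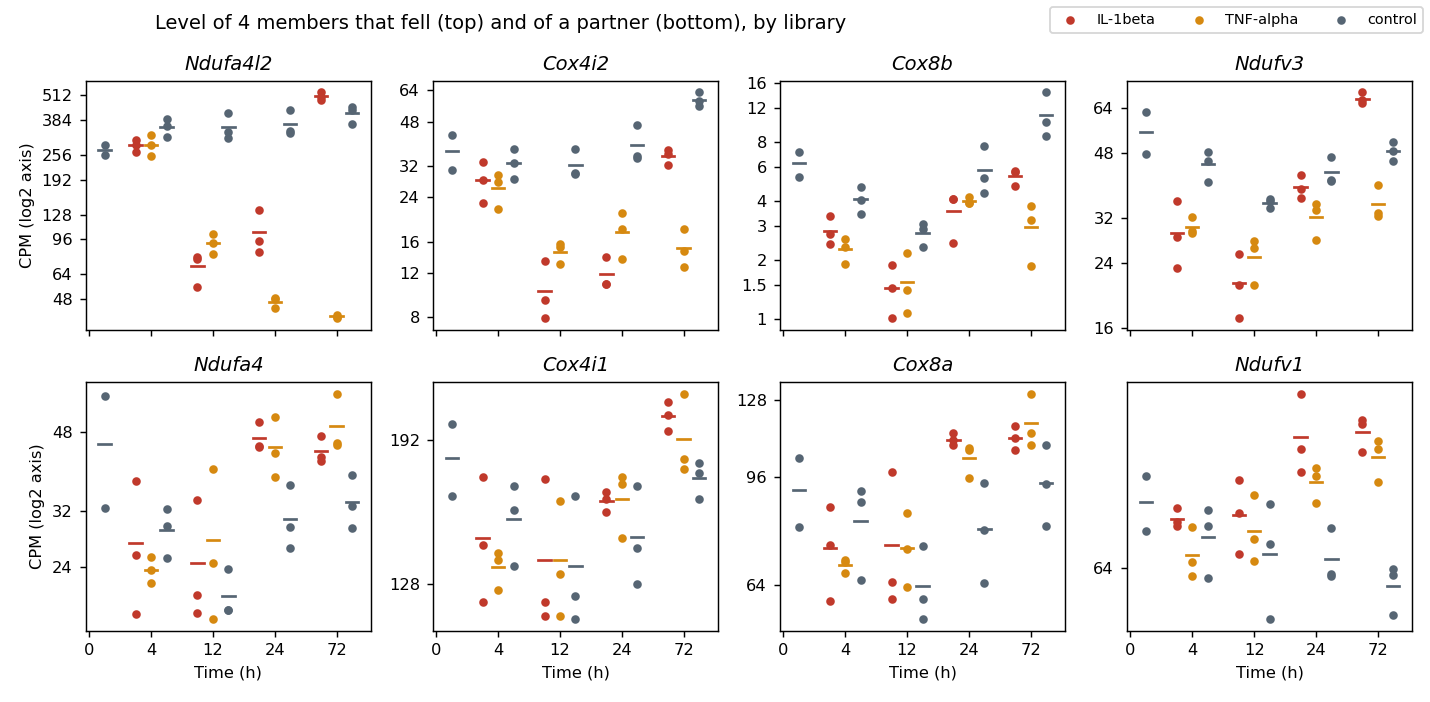
Levels of Ndufa4l2, Cox4i2, Cox8b and Ndufv3 (upper row) and of Ndufa4, Cox4i1, Cox8a and Ndufv1 (lower row) on a log2 CPM axis, one point per library, by treatment and time, with a bar at each group mean. At 12 h every treated library of the upper genes lies below every control, and at 72 h Ndufa4l2 is at 481 to 527 CPM with IL-1beta and at 38.5 to 40.2 CPM with TNF-alpha, while no lower gene was called lower with either cytokine.

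Other isoform pairs gave small or no differences. Cox6b2, known as the testis isoform of a complex IV subunit, had 2.21, 2.49 and 2.81 CPM with IL-1beta at 24 h, 1.90, 1.77 and 1.77 CPM with TNF-alpha and 1.47, 1.47 and 1.47 CPM in controls, and at most 4.22 CPM in any library, a control of 0 h. It passed the test once, with IL-1beta at 24 h (log2 change 0.77 ± 0.27, adjusted p = 0.0265), and lost the call without IL-1beta c (0.67) or without control a, b or c (0.77 each). Cox6b1, its ubiquitous counterpart, changed by 0.41 ± 0.19 (adjusted p = 0.0978) in the same comparison. Of the 3 genes that encode the same c subunit of the ATP synthase rotor, Atp5g3 was the most abundant; at 72 h its log2 change was 0.18 ± 0.15 (adjusted p = 0.36) with IL-1beta, and those of Atp5g1 and Atp5g2 were -0.35 ± 0.18 (adjusted p = 0.124) and -0.10 ± 0.29 (adjusted p = 0.83). Cox6a1 and Cox7a2, both general isoforms, and Cox7a2l, which takes part in joining complexes III and IV, had log2 changes with TNF-alpha at 72 h of 0.13 ± 0.17 (adjusted p = 0.577), 0.34 ± 0.21 (adjusted p = 0.219) and 0.30 ± 0.13 (adjusted p = 0.0614).

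The remaining calls were mostly small rises at 24 and 72 h. With IL-1beta, 15 members rose and 3 fell at 24 h, against 17% and 15.6% of all genes tested, and 12 rose and 2 fell at 72 h, against 19.3% and 19.7% of all genes. For TNF-alpha the counts were 7 higher and 3 lower at 24 h (13.2% and 11.9% of all genes), and 11 higher and 4 lower at 72 h (17.8% and 18.3% of all genes). In this fit the members called higher were thus near or below the share of all genes, and fewer members were called lower than among all genes. For the members called higher this depended on the fit. With only the libraries compared 28 and 36 members rose with IL-1beta at 24 and 72 h, where 3202 and 3787 of all genes rose. Without the low-count filter 37 and 24 rose (3007 and 3236 of all genes). All 39 libraries together gave 1 and 1 (1606 and 2152 of all genes). Each of these fits chose anew the genes it tested. Their number is not given here, so the counts of all genes in these fits cannot be read as shares. The sign was more one-sided than the calls: with IL-1beta 73 of 82 members had a positive log2 change at 24 h and again at 72 h, with medians of 0.21 and 0.18. With TNF-alpha 70 members were positive at 24 h and 59 at 72 h, with medians of 0.20 and 0.10. Members share the same libraries, so these signs are not separate observations. The median deviation of the members from their mean over all libraries (log2) was 0.228, 0.296 and 0.209 with IL-1beta at 24 h. It was 0.107, 0.238 and 0.259 with TNF-alpha and 0.014, -0.149 and 0.216 in controls, so both cytokines overlapped the controls. At 72 h the TNF-alpha libraries (0.152 to 0.435) overlapped the controls (0.128 to 0.274), and the IL-1beta libraries (0.345 to 0.377) lay above them. The medians of all genes in the 8 comparisons lay between -0.03 and 0.00. At 4 h the members leaned the other way, 69 of 82 being negative with IL-1beta and 77 with TNF-alpha, and at 12 h 47 were negative with IL-1beta and 31 with TNF-alpha. The lean at 4 h changed with the libraries used: without IL-1beta a the IL-1beta median was -0.01, and against control 12 h the TNF-alpha median was -0.02. IL-1beta gave 1 member higher and 6 lower at 4 h (15.5% and 17.2% of all genes, 32.7% in either direction) with a median of -0.14 (0 and 17 with library totals alone), and 1 higher and 4 lower at 12 h (14.5% and 15% of all genes, 29.6% in either direction) with a median of -0.02. TNF-alpha gave 0 higher and 5 lower at 4 h (10.9% and 10.6% of all genes) with a median of -0.26, and 4 higher and 4 lower at 12 h (14.6% and 13.8% of all genes) with a median of 0.08. With library totals alone the counts at 12 h were 2 and 4 for IL-1beta and 5 and 3 for TNF-alpha. At an unadjusted p under 0.05, 0 members were higher and 26 lower with TNF-alpha at 4 h, and DESeq2 called 0 and 4. With only the libraries compared 30 were lower with TNF-alpha at 4 h (1985 of all genes). The count was 48 without the low-count filter (2342 of all genes) and 1 with all 39 libraries (580 of all genes). The IL-1beta count at 24 h depended on single controls: 8 members rose without control a, 6 without control b and 20 without control c.

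The members called at the early times, other than Ndufa4l2, Cox4i2, Cox8b and Ndufv3, were these. Ndufab1, the mitochondrial acyl carrier protein, was the 1 member higher with IL-1beta at 4 h and at 12 h, by 0.25 and 0.30 on the log2 scale, and each call was lost on leaving out any one library but control b (4 h) or control c (12 h). With IL-1beta at 4 h Atp5s (-0.65, lost without control a at -0.43), Ndufs8 (-0.34, lost without IL-1beta a at -0.25 or control a at -0.27), Ndufa9, Sdha and Uqcrc2 were lower beside Ndufv3. With TNF-alpha at 4 h Cox8b, Ndufv3, Ndufb10 (-0.56), Ndufs3 (-0.32) and Uqcrc2 were lower, and 4 of them, Ndufv3 being the exception, lost the call without TNF-alpha b (Cox8b -0.75, Ndufb10 -0.49, Ndufs3 -0.25, Uqcrc2 -0.16) and also without control a (Cox8b -0.73, Ndufb10 -0.49, Ndufs3 -0.28, Uqcrc2 -0.15). Against control 12 h Cox8b (-0.27) and Ndufb10 (-0.20) were not called. The 4 members higher with TNF-alpha at 12 h were Uqcrfs1, Uqcrc1, Ndufa10 and Cox5a (0.40, and 0.26 without TNF-alpha c, where it was not called).

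**Figure D2:**
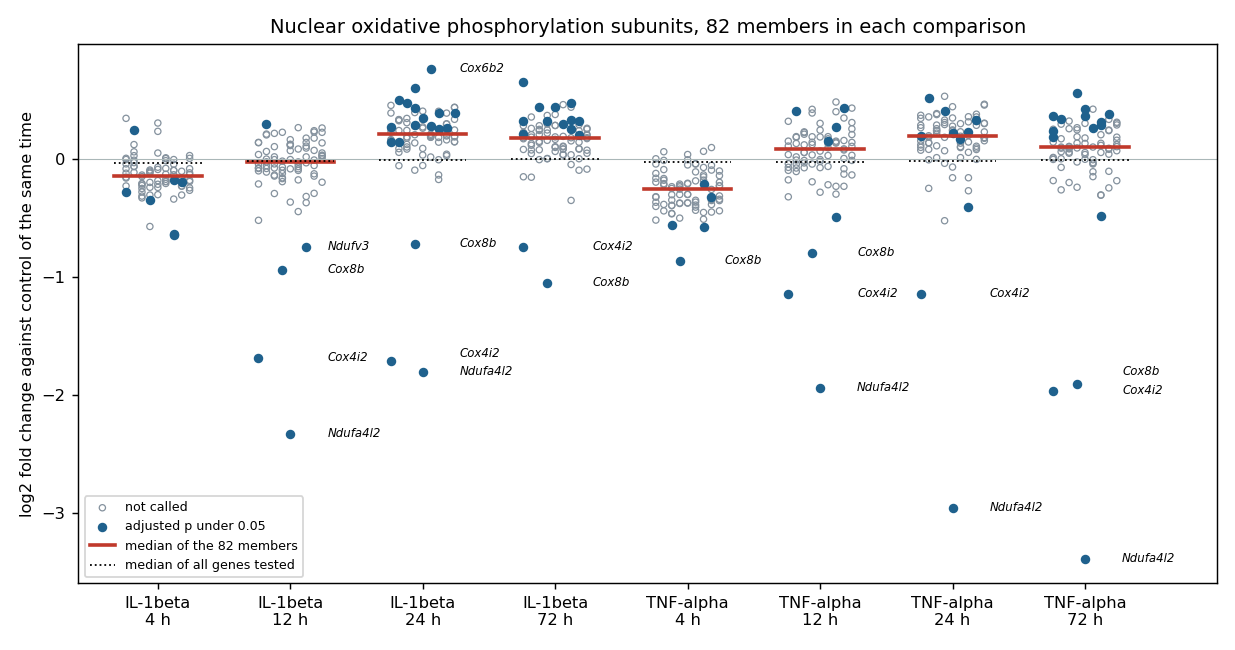
Log2 fold change of the 82 members against the control of the same time in the 8 cytokine comparisons, one point per member, filled where the adjusted p was under 0.05, with a red bar at the members' median and a dotted line at the median of all genes tested. The members' medians lie between -0.26 and 0.21, and of the called members only Ndufa4l2, Cox4i2 and Cox8b fall by 1 or more on the log2 scale.

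In complex I, the entry point for electrons from NADH, 6 of 38 members rose and 1 fell with IL-1beta at 24 h, and 6 rose and none fell at 72 h. With TNF-alpha at 72 h 5 rose and 2 fell, against 17.8% and 18.3% of all genes. Of all genes 17% rose and 15.6% fell with IL-1beta at 24 h, and 19.3% and 19.7% at 72 h. Ndufv1, which holds the NADH-binding flavin, had 84.8, 80.4 and 85.6 CPM with IL-1beta at 72 h, 82.1, 75.8 and 80.8 CPM with TNF-alpha, and 63.8, 58.3 and 63.1 CPM in controls. Every treated library lay above every control, and the log2 changes were 0.44 ± 0.07 (adjusted p = 7.54e-06) and 0.37 ± 0.07 (adjusted p = 0.000123). Ndufa10, an accessory subunit, rose in 5 of the 8 comparisons. At 24 h it had 66.4, 72.9 and 61.3 CPM with IL-1beta, 59.6, 58.8 and 61.1 CPM with TNF-alpha, and 48.0, 52.5 and 52.4 CPM in controls, with log2 changes of 0.39 ± 0.08 (adjusted p = 0.000294) and 0.23 ± 0.08 (adjusted p = 0.0375). The TNF-alpha call at 24 h was lost without any one of the 6 libraries (0.19 to 0.25). Its call with TNF-alpha at 12 h, 0.27 ± 0.09 (adjusted p = 0.0157), was lost without TNF-alpha c (0.11), and that with IL-1beta at 72 h, 0.26 ± 0.08 (adjusted p = 0.013), without IL-1beta c (0.23) or control b (0.21).

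Not all core subunits of complex I were called. Ndufs1, the largest, had 81.9, 78.5 and 84.8 CPM with IL-1beta at 72 h, 88.8, 82.3 and 85.0 CPM with TNF-alpha, and 74.5, 77.4 and 87.0 CPM in controls, and the groups overlapped. Its log2 changes were 0.04 ± 0.07 (adjusted p = 0.693) and 0.10 ± 0.07 (adjusted p = 0.255). Ndufs7, which holds the last iron-sulfur cluster of the chain inside complex I, was called with IL-1beta at 72 h (0.44 ± 0.14, adjusted p = 0.0125), but not without control c (0.32, adjusted p = 0.114). Ndufs5, a small accessory subunit at 5.12, 5.87 and 6.09 CPM with IL-1beta and 3.28, 4.09 and 3.53 CPM in controls at 72 h, rose by 0.65 ± 0.19 (adjusted p = 0.00621). Its levels with IL-1beta at 72 h lay above all 3 controls.

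In complex II, which is also the succinate dehydrogenase of the citric acid cycle, the membrane anchor Sdhc rose with both cytokines. At 72 h it had 106, 106 and 109 CPM with IL-1beta, 114, 104 and 112 CPM with TNF-alpha, and 88.1, 84.2 and 83.9 CPM in controls, without overlap. The log2 changes were 0.32 ± 0.07 (adjusted p = 0.000369) and 0.37 ± 0.07 (adjusted p = 9.1e-05). The flavoprotein Sdha fell with IL-1beta at 4 h by 0.20 ± 0.06 on the log2 scale (adjusted p = 0.00888; lost without IL-1beta a at -0.16, IL-1beta b at -0.17 or control b at -0.16) and rose at 72 h by 0.21 ± 0.06 (adjusted p = 0.00429), and it was not called with TNF-alpha at any time. The iron-sulfur subunit Sdhb was called in none of the 8 comparisons, with -0.09 ± 0.10 (adjusted p = 0.557) for IL-1beta and 0.10 ± 0.10 (adjusted p = 0.464) for TNF-alpha at 72 h.

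In complex III, Uqcrc1, a core protein of the matrix side, was called higher with IL-1beta at 24 and 72 h and with TNF-alpha at 12, 24 and 72 h. At 72 h its levels were 100, 98.1 and 101 CPM with IL-1beta, 95.7, 99.1 and 96.4 CPM with TNF-alpha, and 79.2, 79.6 and 84.1 CPM in controls. The treated libraries did not overlap the controls, with log2 changes of 0.30 ± 0.05 (adjusted p = 2e-05) and 0.26 ± 0.05 (adjusted p = 0.000158). At 24 h the log2 changes were 0.28 ± 0.05 (adjusted p = 6.1e-05) and 0.17 ± 0.05 (adjusted p = 0.0152), the second lost without control a (0.15). The TNF-alpha call at 12 h, 0.15 ± 0.05 (adjusted p = 0.0361), was lost without TNF-alpha b (0.14), control a (0.15) or control b (0.12). The Rieske iron-sulfur protein Uqcrfs1 had 54.0, 50.9 and 51.7 CPM with IL-1beta at 72 h, 58.9, 52.6 and 51.3 CPM with TNF-alpha, and 41.4, 42.9 and 40.8 CPM in controls, and changed by 0.32 ± 0.10 (adjusted p = 0.00707) and 0.38 ± 0.10 (adjusted p = 0.00181). With TNF-alpha it was already higher at 12 h, by 0.43 ± 0.10 (adjusted p = 0.000957). Cytochrome c1, encoded by Cyc1, was called in none of the 8 comparisons, with 0.06 ± 0.13 (adjusted p = 0.752) for IL-1beta and 0.04 ± 0.13 (adjusted p = 0.863) for TNF-alpha at 72 h. Uqcrc2, the other core protein, fell with both cytokines at 4 h, by 0.18 ± 0.07 on the log2 scale (adjusted p = 0.0494) with IL-1beta and by 0.21 ± 0.07 (adjusted p = 0.0328) with TNF-alpha, and was not called later. The IL-1beta call was lost without IL-1beta a (-0.08), IL-1beta b (-0.21), control a (-0.11) or control b (-0.15), and the TNF-alpha call without TNF-alpha b (-0.16), TNF-alpha c (-0.20), control a (-0.15) or control b (-0.20). Against control 12 h in place of control 4 h, the TNF-alpha value of Uqcrc2 at 4 h was 0.03 (adjusted p = 0.788).

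In complex IV, Cox4i2 and Cox8b were the only members called lower in any of the 8 comparisons, and at 72 h none rose with either cytokine (Ndufa4 being counted by its name under complex I). At 24 h Cox5a, a subunit of the matrix side, had 19.9, 20.4 and 19.8 CPM with IL-1beta, 20.2, 20.6 and 20.1 CPM with TNF-alpha, and 13.4, 12.6 and 16.5 CPM in controls. All treated libraries exceeded all controls, with log2 changes of 0.50 ± 0.13 (adjusted p = 0.00372) and 0.52 ± 0.13 (adjusted p = 0.00351). At 72 h the changes of Cox5a were 0.21 ± 0.14 (adjusted p = 0.249) and 0.30 ± 0.13 (adjusted p = 0.0832).

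In complex V the catalytic beta subunit parted the cytokines. Atp5b had 523, 514 and 538 CPM with IL-1beta at 72 h, 657, 610 and 620 CPM with TNF-alpha, and 486, 486 and 522 CPM in controls. The TNF-alpha libraries stood above all others, while the lowest IL-1beta library was below the highest control. The log2 change was 0.34 ± 0.05 (adjusted p = 5.97e-06) with TNF-alpha and 0.08 ± 0.05 (adjusted p = 0.29) with IL-1beta, and IL-1beta lay below TNF-alpha by a log2 difference of -0.26 ± 0.05 (adjusted p = 0.000199). Atp5a1, the alpha subunit that alternates with it in the catalytic head, rose with both, by 0.22 ± 0.05 (adjusted p = 0.00145) with IL-1beta and 0.19 ± 0.05 (adjusted p = 0.00618) with TNF-alpha. The gamma subunit Atp5c1 had log2 changes of -0.01 ± 0.11 (adjusted p = 0.975) and 0.11 ± 0.11 (adjusted p = 0.497) at 72 h.

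Between the cytokines few members differed. At 12 h 1 member was higher and 1 lower with IL-1beta than with TNF-alpha (4.7% and 5.88% of all genes), and at 24 h again 1 and 1 (9.31% and 10.8% of all genes). At 72 h 6 were higher and 1 was lower, 7 of 82, where 19.4% and 20.4% of all genes, 39.8% in either direction, were called. With library totals alone 4 were higher and 3 lower (median -0.04, against 0.06), and with the length trend removed from each library 6 and 8. The 6 were Ndufa4l2, Cox4i2, Cox8b, Ndufv3, Ndufs5 and Atp5j, and the 1 was Atp5b. Ndufa4l2, Cox4i2, Cox8b and Ndufv3 were also the 4 members called lower with IL-1beta at 12 h. Ndufs5 differed by 0.51 ± 0.18 (adjusted p = 0.0244), lost without IL-1beta b (0.49), IL-1beta c (0.46), TNF-alpha b (0.48) or TNF-alpha c (0.46), and Atp5j, a peripheral stalk subunit of the ATP synthase, by 0.31 ± 0.11 (adjusted p = 0.02), lost without IL-1beta a (0.30), IL-1beta b (0.27) or TNF-alpha c (0.25). At 24 h the 1 and 1 were Ndufa4l2 and Cox4i2, and at 12 h Ndufab1 (0.34) and Atp5b (-0.19); without single libraries the count at 12 h ran from 0 to 4, and with the length trend removed 1 was higher and 2 were lower. The test of a changed effect between 72 and 12 h gave 9 members up and 1 down for IL-1beta (14.1% and 14.1% of all genes) and 0 up and 2 down for TNF-alpha (3.64% and 4.9% of all genes, 8.54% in either direction). The 2 were Ndufa4l2 and Cox4i2; at an unadjusted p under 0.05, 4 were up and 3 down for TNF-alpha, and DESeq2 called 0 and 3. With library totals alone 2 were up and 2 down for TNF-alpha, and with the length trend removed 1 and 3. Beside Ndufa4l2, the IL-1beta effect shifted upwards for Ndufv3 by 1.22 ± 0.18 (adjusted p = 1.45e-06) and for Sdha by 0.35 ± 0.08 (adjusted p = 0.00119).

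The untreated cultures changed more of the members than a cytokine did at any single time. Between 72 and 12 h 55 members rose and 0 fell, against 18.7% and 18.3% of all genes (37.1% in either direction), with a median log2 difference of 0.49. Between 24 and 12 h 27 rose and 0 fell, against 10.2% and 11.5% of all genes, with a median of 0.29. At an unadjusted p under 0.05, 64 rose and 1 fell for 72 h and 42 rose and 1 fell for 24 h, and DESeq2 called 52 and 0 for 72 h and 23 and 0 for 24 h. By complex, the calls for 72 h were 28 of 38 members in complex I, 2 of 4 in complex II, 4 of 9 in complex III, 11 of 14 in complex IV and 10 of 17 in complex V. Of these 55 members 39 were called in none of the 8 cytokine comparisons, against 53 of all 82 members and 19.9% of all genes that rose between these controls. The largest difference was that of Cox8b, with 14.4, 10.2 and 8.60 CPM at 72 h and 2.34, 2.89 and 3.05 CPM at 12 h, a log2 difference of 2.02 ± 0.24 (adjusted p = 2.43e-08). Ndufb3, an accessory subunit of complex I, had 33.6, 37.8 and 32.9 CPM at 72 h and 14.7, 14.2 and 17.6 CPM at 12 h, a difference of 1.17 ± 0.20 (adjusted p = 1.84e-05). Ndufb4 of the same complex had 10.5, 13.7 and 10 CPM at 72 h and 4.40, 4.16 and 4.69 CPM at 12 h (1.37 ± 0.28, adjusted p = 0.000158). Ndufa9 had 44.7, 46 and 45.9 CPM at 72 h and 32.6, 35.7 and 33.9 CPM at 12 h (0.42 ± 0.08, adjusted p = 4.12e-05). None of the 4 genes overlapped between the 2 times. Some members that rose with the cytokines were not called between the controls: Uqcrc1 differed by 0.00 ± 0.05 (adjusted p = 0.981), Ndufv1 by -0.09 ± 0.07 (adjusted p = 0.367) and Atp5b by -0.02 ± 0.05 (adjusted p = 0.858) between the controls of 72 and 12 h.

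This rise went with gene length, and the controls of 0 h lay above those of 12 h. Over the 82 members the log2 difference between controls of 72 and 12 h had a Spearman correlation of -0.501 with length, given as a description across genes that share the same libraries. Of members up to 1000 bases 16 of 22 rose (72.7%, median 0.74), and of all other tested genes of that length with at least 1 CPM 32.5% rose (median 0.25). Of members above 1000 and up to 2000 bases 19 of 28 rose, against 28.3% of other genes, and of members over 2000 bases 20 of 32 rose (median 0.33), against 21.3% of other genes (median -0.01). The median deviation of the members from their mean over all libraries (log2) was 0.185, 0.274 and 0.128 in controls of 72 h and -0.405, -0.386 and -0.076 in controls of 12 h. In the controls of 0 h it was 0.131 and 0.524, which overlaps the controls of 72 h. The controls of 0 h lie on the other side of the parting of the libraries, so time cannot be told apart from that parting there. Library c of control 0 h was at 0.836 for the short members and 0.255 for the long ones. Similar spreads occurred within groups: at 12 h TNF-alpha c was at 0.070 while TNF-alpha b was at -0.518, and IL-1beta a was at -0.023 while b was at -0.516. With a length trend removed from each library, an alternative added after the data were seen, 43 members rose and 2 fell between 72 and 12 h. The count without single libraries ran from 41 to 67. The part of gene length in the rise was not tested beyond these values.

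**Figure D3:**
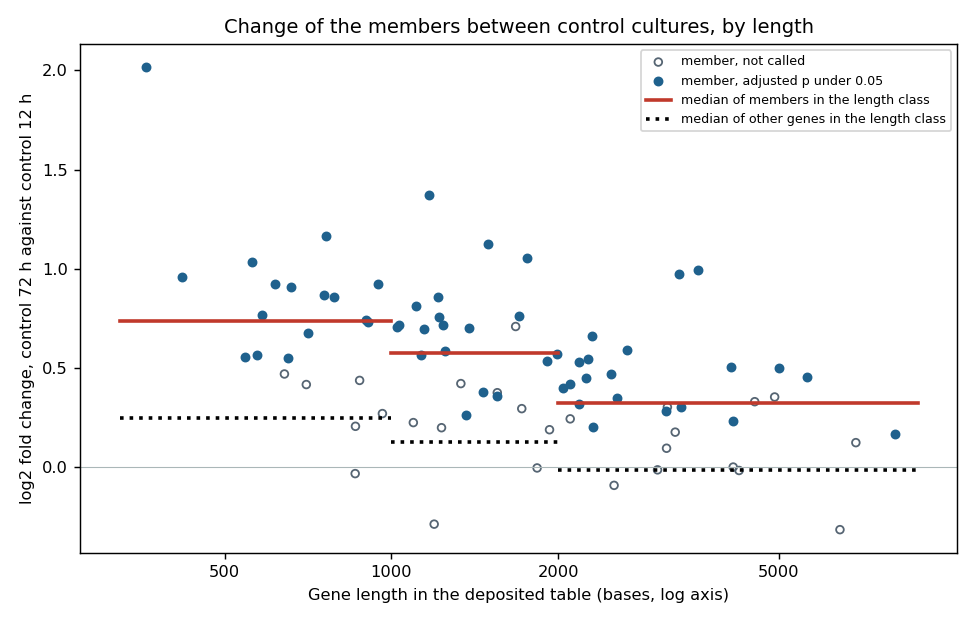
Log2 fold change of each member between untreated controls of 72 and 12 h against gene length in bases on a log axis, filled where the adjusted p was under 0.05, with lines at the medians of members (red) and of other genes (dotted) in 3 length classes. The members' medians are 0.74, 0.58 and 0.33 from short to long, those of other genes 0.25, 0.13 and -0.01, and no member was called lower.

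**Figure D4:**
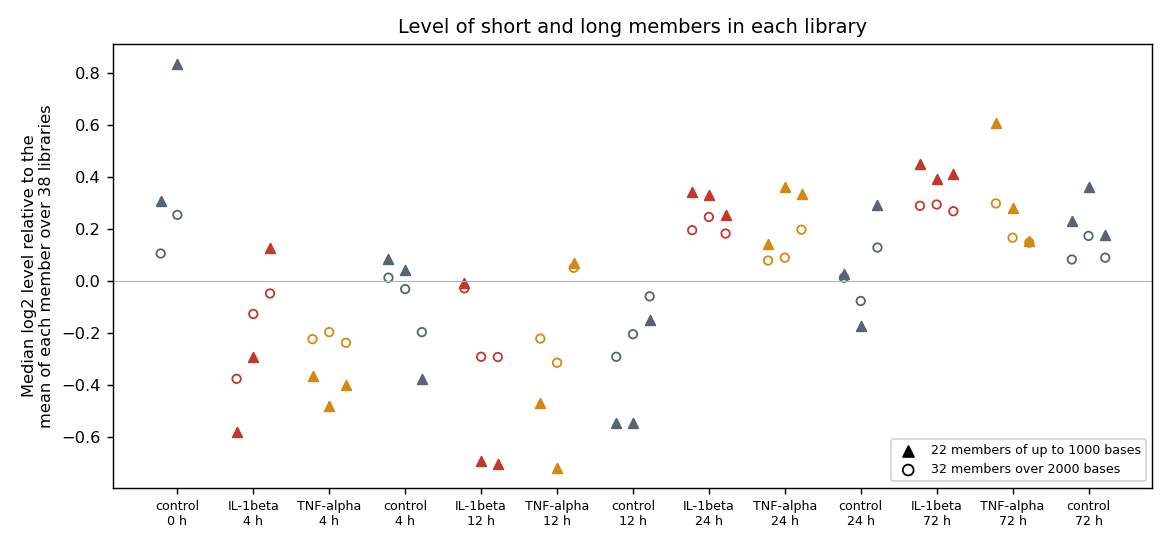
Median log2 level of the 22 members of up to 1000 bases (triangles) and the 32 members over 2000 bases (open circles) in each of the 38 libraries, relative to each member's mean over all libraries, by treatment and time. Short members spread more than long ones, as in library c of control 0 h, at 0.836 for the short and 0.255 for the long members.

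Genes of connected pathways were counted in the same fit. The 28 genes of the hypoxia and glycolysis list, which holds no member, were low with both cytokines at 12 h and parted at 72 h: 26 fell and 1 rose with IL-1beta at 12 h (median -1.25), and 18 rose and 2 fell at 72 h (median 0.43). With TNF-alpha 26 fell and 2 rose at 12 h (median -1.37), and 27 fell and 0 rose at 72 h (median -1.10). Of all genes 14.5% rose and 15% fell with IL-1beta at 12 h, and 19.3% and 19.7% at 72 h. With TNF-alpha these shares were 14.6% and 13.8% at 12 h, and 17.8% and 18.3% at 72 h. Pdk1, the kinase that shuts pyruvate dehydrogenase, had 228, 216 and 234 CPM with IL-1beta at 72 h, 52.0, 54.0 and 59.0 CPM with TNF-alpha, and 159, 149 and 165 CPM in controls. It lay above the controls with IL-1beta by 0.52 ± 0.07 (adjusted p = 4.93e-07) and below them with TNF-alpha by a log2 change of -1.52 ± 0.08 (adjusted p = 1.75e-17). Ldha, lactate dehydrogenase A, changed by 0.92 ± 0.08 (adjusted p = 2.82e-12) and -1.28 ± 0.08 (adjusted p = 1.7e-15), and Bnip3, a mitophagy receptor, by 0.60 ± 0.10 (adjusted p = 3.33e-06) and -2.14 ± 0.11 (adjusted p = 6.09e-18). At 12 h Pdk1 changed by -2.20 ± 0.08 (adjusted p = 4.23e-21) with IL-1beta and -2.10 ± 0.08 (adjusted p = 7.82e-21) with TNF-alpha. Directly compared at 72 h, 27 of the 28 were higher with IL-1beta and 0 lower, against 19.4% and 20.4% of all genes. No measure of oxygen is given for these cultures.

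Of 20 genes of the citric acid cycle and pyruvate dehydrogenase 13 rose and 0 fell with IL-1beta at each of 24 and 72 h (medians 0.27 and 0.23), where 17% and 19.3% of all genes rose. TNF-alpha gave 9 higher and 0 lower at 24 h (median 0.17) and 12 higher and 1 lower at 72 h (median 0.24), where 13.2% and 17.8% of all genes rose. Pcx, pyruvate carboxylase, had 81.4, 79.1 and 84.8 CPM with IL-1beta at 72 h, 93.3, 111 and 104 CPM with TNF-alpha, and 41.7, 43.4 and 45.1 CPM in controls (log2 changes 0.92 ± 0.08, adjusted p = 3.3e-11, and 1.24 ± 0.08, adjusted p = 2.54e-14). Cs, citrate synthase, had 91.4, 88.9 and 98.1 CPM with IL-1beta, 115, 113 and 113 CPM with TNF-alpha, and 76.0, 72.6 and 73.2 CPM in controls. Its log2 changes were 0.33 ± 0.05 (adjusted p = 2.21e-06) and 0.62 ± 0.05 (adjusted p = 3.61e-12).

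Of the 13 subunits encoded in mitochondrial DNA 7 could be tested, since 5 were at 0 in every library and mt-Co3 was at 0 in 37 of the 38. With IL-1beta 5 of the 7 rose at 24 h (median 0.62) and 7 of 7 at 72 h (median 0.47), where 17% and 19.3% of all genes rose. TNF-alpha gave 4 higher at 24 h (median 0.54) and 2 at 72 h (median 0.11), where 13.2% and 17.8% of all genes rose. None of the 7 fell in these 4 comparisons. mt-Co1, the catalytic subunit of complex IV, had 3650, 3370 and 3660 CPM with IL-1beta at 72 h, 3760, 3790 and 3930 CPM with TNF-alpha, and 2650, 2760 and 2360 CPM in controls, with log2 changes of 0.46 ± 0.13 (adjusted p = 0.00611) and 0.56 ± 0.13 (adjusted p = 0.00105).

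Of 46 tested assembly factors 5 rose and 0 fell with IL-1beta at 24 h and 2 rose and 3 fell at 72 h, while 25 rose and 1 fell between controls of 72 and 12 h (median 0.27). Of 77 mitochondrial ribosomal proteins 17 rose and 0 fell with IL-1beta at 24 h, 11 rose and 0 fell at 72 h, and 38 rose and 1 fell between the controls (median 0.31). Of all genes 17% rose and 15.6% fell with IL-1beta at 24 h, and 19.3% and 19.7% at 72 h. Between these controls 18.7% of all genes rose and 18.3% fell. Among 18 regulators of mitochondrial biogenesis 3 rose and 0 fell with TNF-alpha at 72 h, against 17.8% and 18.3% of all genes. Ppargc1a, the coactivator PGC-1alpha, was among these 3, with 8.16, 6.22 and 5.83 CPM with TNF-alpha and 2.15, 1.98 and 2.48 CPM in controls (1.62 ± 0.27, adjusted p = 1.12e-05), and so was its partner Esrra (0.44 ± 0.11, adjusted p = 0.00132). With IL-1beta at 72 h Ppargc1a had 1.14, 1.25 and 1.97 CPM (-0.56 ± 0.33, adjusted p = 0.195), and the corepressor Nrip1 rose by 1.5 ± 0.08 (adjusted p = 1.66e-17). The cytokines differed in Ppargc1a by a log2 difference of -2.18 ± 0.29 (adjusted p = 1e-07) at 72 h, IL-1beta being lower.

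**Figure D5:**
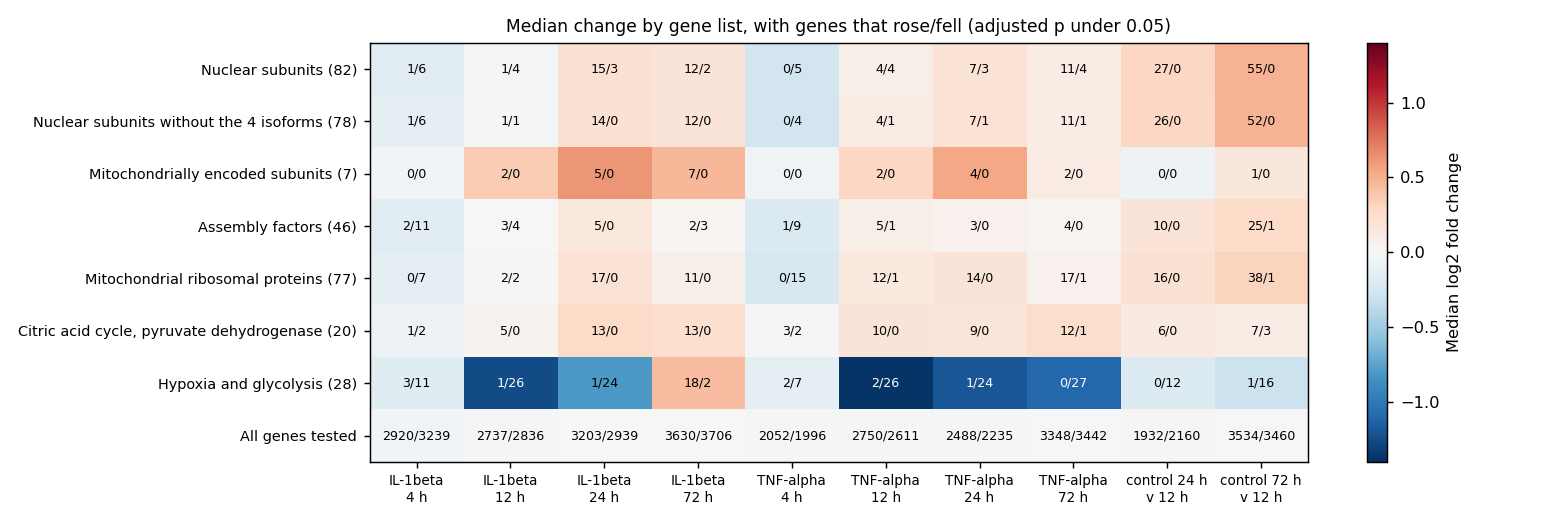
Median log2 fold change of each gene list (rows, with the number of genes tested) in each cytokine comparison and between controls (columns), as colour, with the genes that rose and fell at an adjusted p under 0.05 written in each cell. The hypoxia and glycolysis list lies at a median of 0.43 with IL-1beta and -1.10 with TNF-alpha at 72 h, and the 82 members lie at 0.18 and 0.10.

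Leukocyte markers summed to 32.3 to 38.2 CPM with IL-1beta at 72 h, 53.5 to 77.2 CPM with TNF-alpha and 26.3 to 30.5 CPM in controls, and the T cell marker Cd3e averaged under 0.1 CPM. Fibroblast markers summed to 19500 to 20200 CPM with IL-1beta, 6450 to 7190 CPM with TNF-alpha and 11000 to 13000 CPM in controls at 72 h. These shifts ran beside the changes of the members at 72 h, and their part in them was not tested.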

How the data were processed

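Counts per gene were deposited by the authors as 1 table of 39 mRNA libraries. Trimmomatic, cutadapt, STAR, featureCounts and the mm10 build are named, without versions or roles, in the submitters' processing notes, and the strand setting is not stated there. The deposited table also holds gene length, which was used for levels per length. Its 2199 lines without a gene name were left out, as was control 0 h b. All count columns could be assigned to a sample. The miRNA table was not used.

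A quasi-likelihood model with 1 coefficient per group was fitted to the 38 libraries in edgeR 4.0.16 (R 4.3.3, limma 3.58.1) after its low-count filter, which kept 18857 genes and 99.905% of the counts. Totals were scaled by TMM, with factors of 0.864 to 1.12, and levels of single genes are CPM on the scaled totals. Sums and means of the cell type markers, and the means used for the level threshold, are CPM on unscaled totals. Benjamini-Hochberg adjustment ran over all genes tested, and a gene was called at an adjusted p under 0.05. The script was tested on simulated data. DESeq2 1.42.0, other scalings and filters, a replicate block and leaving out libraries were alternatives. Replicate letters did not pair the samples.

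The members, lists and promoter motifs were chosen with earlier results of these data known. Named genes were the isoform pairs, 12 core subunits, for each comparison and direction the 3 called members of largest change and the 3 of smallest p, members in counts of up to 5, and for other lists the genes of smallest p. Some items that this rule names are not reported here. Promoters and positions came from RefSeq tables of GRCm38.p6, in which all 82 members were found by symbol or, for Atp5f1 (Atp5pb), Atp5s (Dmac2l) and Atp5sl (Dmac2), by a synonym. Motifs were searched on both strands; an 8-base core stood for the NRF1 motif, in place of a 10-base form searched first.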

Additional observations from a re-analysis of the deposited data

Results flagged for a closer look

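The effect of a cytokine changed between 12 and 72 h for 10 members with IL-1beta and 2 with TNF-alpha, by a direct test of that difference (edgeR, adjusted p under 0.05), where 28.2% and 8.54% of all genes were called. For IL-1beta the effect at 72 h exceeded that at 12 h by 2.62 (log2) for Ndufa4l2, 1.22 for Ndufv3, 1.17 for Ndufs5, 0.94 for Cox4i2, 0.37 for Sdhc, 0.35 for Sdha, 0.32 for Ndufv1, 0.29 for Atp5a1 and 0.22 for Uqcrc1. For Ndufab1 it was lower, with a difference of -0.45. For TNF-alpha the effect at 72 h was lower than at 12 h, with a difference of -1.45 for Ndufa4l2 and -0.82 for Cox4i2.

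Some of these rest on single libraries. The call of Cox4i2 with TNF-alpha was lost without TNF-alpha 12 h c (-0.78, adjusted p = 0.062) or TNF-alpha 72 h b (-0.70, adjusted p = 0.0808). That of Uqcrc1 was lost without any of 8 libraries, down to 0.14 without IL-1beta 12 h a or control 12 h c. That of Ndufv1 was lost without IL-1beta 12 h a (0.25), control 12 h b (0.29), control 12 h c (0.22) or control 72 h b (0.28), that of Sdhc without control 12 h c (0.29), and that of Ndufab1 without IL-1beta 72 h c (-0.39) or control 72 h b (-0.40).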

How the results depend on the processing

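The calls of Ndufa4l2 and Cox4i2 against the control at 12, 24 and 72 h, where made, held in every alternative run. Of 77 named calls, 74 held with DESeq2, 77 with median-of-ratios size factors, 77 with the replicate block, 76 with the length trend removed (added after the data were seen), 75 with library totals alone, 72 without the low-count filter, 69 with only the libraries compared and 35 with all 39 libraries; leaving out 1 library kept 426 of 504. Against control 12 h, 0 of the 4 named calls with TNF-alpha at 4 h held: Cox8b was at -0.27, Ndufb10 at -0.20 and Ndufv3 at -0.22, and the fall of Uqcrc2 reversed, to 0.0334. The cause of these shifts was not tested.

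Counts of members called, both directions together, moved as follows. With all 39 libraries they were 1, 4 and 3 for IL-1beta at 4, 24 and 72 h, 1, 2, 3 and 3 for TNF-alpha at 4, 12, 24 and 72 h, 0, 1 and 4 for IL-1beta against TNF-alpha at 12, 24 and 72 h, 4 and 29 for controls of 24 and 72 h, and 4 and 0 for the changed effects of IL-1beta and TNF-alpha. Without the low-count filter they were 17, 40 and 26 for IL-1beta at 4, 24 and 72 h, 48, 17, 36 and 25 for TNF-alpha at 4, 12, 24 and 72 h, 12 and 11 between the cytokines at 12 and 72 h, 45 for controls of 24 h and 16 for the changed IL-1beta effect. With only the libraries compared they were 31 and 38 for IL-1beta at 24 and 72 h, 30, 4 and 23 for TNF-alpha at 4, 12 and 24 h, and 0 and 16 between the cytokines at 12 and 72 h. With library totals alone they were 17 for IL-1beta at 4 h, 8 and 23 for TNF-alpha at 4 and 72 h, 51 for controls of 24 h and 4 for the changed TNF-alpha effect. Under this scaling the median of all genes was -0.134, 0.101 and 0.136 (log2) for IL-1beta at 4 h, TNF-alpha at 72 h and controls of 24 h. With TMM these medians were -0.033, -0.008 and 0.011. With the length trend removed the member counts were 10 for IL-1beta at 12 h, 8, 17 and 24 for TNF-alpha at 4, 24 and 72 h, 14 between the cytokines at 72 h and 4 for the changed TNF-alpha effect. Counts over all genes moved as well. With IL-1beta at 24 h 3203 genes rose and 2939 fell in the fit of 38 libraries. With all 39 libraries these were 1606 and 1423. They were 3007 and 2362 without the low-count filter, and 3202 and 2987 with only the libraries compared. Each of these fits chose anew the genes it tested, so these counts cannot be read as shares of the same total.

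Leaving out 1 library gave 3 to 13, 3 to 6, 9 to 22 and 12 to 15 calls for IL-1beta at 4, 12, 24 and 72 h, 1 to 14, 5 to 13, 5 to 12 and 14 to 15 for TNF-alpha, 0 to 4, 1 to 2 and 5 to 8 between the cytokines at 12, 24 and 72 h, 9 to 35 and 41 to 67 for controls of 24 and 72 h, and 7 to 10 and 1 to 3 for the changed effects of IL-1beta and TNF-alpha. With the replicate block 56 members rose between controls of 72 and 12 h and 16 rose with IL-1beta at 24 h; same-lettered libraries correlated at -0.106 to 0.096 in their deviations, so the letters give no pairing.

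Cox6b2, Cox8b, Ndufs5 and Atp5g2 lie at a few CPM. At 4 h the parting of the libraries limits the TNF-alpha comparison, and with 3 libraries per group small changes can be missed.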
